A study of Capra hircus with 20 samples.

Results

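The imprinted growth genes IGF2, PEG3, PEG10, MEST, CDKN1C, PLAGL1, NDN and GRB10 were followed through goat intramuscular and subcutaneous cells labelled preadipocytes and adipocytes. They were taken by gene symbol from the table of mRNA levels, and the transcripts listed under each symbol were summed. The 8 genes hold 26 of the 43766 transcripts in that table and are 8 of its 20587 genes.

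Cells were isolated from the longissimus dorsi muscle and from subcutaneous fat of 5 male Jianzhou Daer goats (Capra hircus) that were 7 days old, and were used at passage 3. Their total RNA was made into strand-specific libraries and sequenced, and each of the 20 libraries is described by its FPKM, a level scaled to transcript length and to the mapped fragments of the library. The 4 groups hold 5 libraries each. As labelled, IMPA are intramuscular preadipocytes at day 0 and IMA the same kind of cells after 3 days of induction with oleic acid. SPA and SA are the subcutaneous preadipocytes at day 0 and the subcutaneous cells after 3 days of the same induction. The comparisons ask how induction (IMA vs IMPA, SA vs SPA) and depot (IMPA vs SPA, IMA vs SA) went with the level of each gene, and whether the change with induction differed between the depots.

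Imprinted genes are transcribed mainly from the copy inherited from a single parent, and many of them act on fetal growth, with paternally expressed genes such as IGF2, PEG3, PEG10 and MEST often promoting growth and maternally expressed genes such as CDKN1C and GRB10 often restraining it. Several are abundant in fetal and newborn tissue, in muscle precursors and in mesenchymal cells, and decline after birth. Which parental copy a transcript came from cannot be read from these values, so imprinting itself was not measured.

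The labelled cell types were checked against marker genes first. Among the 9 of 10 adipocyte markers that are listed, ADIPOQ, PLIN1, LEP, PLIN4 and ADIG stayed under 1 FPKM in every library, before and after induction, and FABP4 is not analysed here. The summed adipocyte markers were 11.3, 11.9, 11.8, 12.1 and 11.8 FPKM in the 5 IMPA libraries, 8.41, 7.27, 7.60, 8.58 and 7.29 in IMA, 11.8, 11.8, 10.8, 11.2 and 12.2 in SPA and 12.2, 11.4, 11.9, 11.3 and 9.97 in SA. The most abundant gene of this list was CEBPA or CIDEC in every library, the 2 genes of the list that passed the filter. CEBPA fell with induction in both depots, from 9.23 ± 0.428 to 5.42 ± 0.628 FPKM in the intramuscular cells (SD, n = 5; limma log2 -0.68, adjusted p = 8.96e-06) and from 5.05 ± 0.368 to 3.91 ± 0.603 in the subcutaneous cells (log2 -0.31, adjusted p = 0.0116), and CIDEC was not called in either. LPL, a lipase of fat uptake, ran from 0.481 to 0.576 FPKM in SPA and from 1.03 to 1.61 in SA, without overlap, and from 0.771 to 1.36 in IMPA and 0.764 to 1.23 in IMA. PPARG, the main transcription factor of fat cells, had a mean of 0.624 ± 0.131 FPKM (SD, n = 5) in SPA, 1.03 ± 0.252 in SA, 0.475 ± 0.0986 in IMPA and 0.364 ± 0.108 in IMA, and both genes failed the filter for a test.

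Each of the 11 listed genes of 12 skeletal muscle markers was above 1 FPKM in every library of IMPA and of IMA. Their sum was 3288, 3309, 3778, 3594 and 3792 FPKM in IMPA and 11401, 11862, 11637, 12017 and 12156 FPKM in IMA, with MYLPF, a fast myosin light chain, as the most abundant gene. In SPA it was 23.6, 7.33, 8.09, 8.23 and 8.37 FPKM and in SA 10.4, 10.7, 9.52, 9.48 and 10.3 FPKM, with TNNT3 as the most abundant gene. SPA 1 was the highest of the subcutaneous libraries. The 4 satellite cell markers PAX7, MYF5, CDH15 and CHRNA1 summed to 76.2, 85.1, 75.7, 82.6 and 75.7 FPKM in IMPA and 83.1, 90.6, 98, 90.8 and 92.5 FPKM in IMA, and none of them reached 1 FPKM in any subcutaneous library. For IMA vs IMPA in limma, 10 of the 11 skeletal muscle markers rose and MYOD1 fell, and MYOG lost its call with quantile normalization or equal mRNA sums. Of the satellite cell markers MYF5 and CHRNA1 rose, CDH15 fell and PAX7 was not called, and the sums of IMPA and IMA overlapped. The intramuscular libraries thus hold muscle lineage RNA that is nearly missing from SPA and SA, and its part in the results below was not tested. In bulk RNA, fewer cells of a type and less RNA per cell cannot be told apart.

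Most stromal markers were well above 1 FPKM in all groups, but CD34 stayed under 1 FPKM in every library and ZNF423 had group means of 0.718 to 1.28 FPKM. The sum over the 10 listed genes ran from 4454 to 6997 FPKM in IMPA, 5933 to 6668 in IMA, 11199 to 11592 in SPA and 10239 to 10546 in SA, with COL3A1 or DCN as the most abundant gene. The 8 proliferation markers summed to 130.3, 141, 129.9, 116 and 137 FPKM in IMPA, 105, 100.5, 121, 101 and 97.6 in IMA, 50.5, 46.4, 45.7, 51.7 and 50.3 in SPA and 248, 243, 234, 220.1 and 248 in SA, led by RRM2 or TOP2A. Of the 8, 6 fell for IMA vs IMPA in limma, where TOP2A and CDK1 were not called, and all 8 rose for SA vs SPA. Their part in the results was not tested either. The 5 endothelial markers (PECAM1, CDH5, VWF, KDR and TIE1) stayed under 1 FPKM in every library, with a sum of 0.139 to 0.946 FPKM. The 4 macrophage markers of 5 that are listed summed to 0.456 to 2.82 FPKM, nearly all of it CD68, and PTPRC, CSF1R and AIF1 were near 0. The 5 pericyte or smooth muscle markers summed to 415, 342, 435, 369 and 457 FPKM in IMPA, 264, 284, 367, 311 and 307 in IMA, 103, 94.4, 99.8, 99.2 and 92.8 in SPA and 149.9, 145, 137, 146 and 147 in SA, led by ACTA2, with RGS5 and MYH11 near 0. ALAS2, the only listed red blood cell marker of 3, summed to 0 to 0.0288 FPKM.

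The files hold FPKM and no counts, and of the study's read totals only the mapped share is used here, so how many reads lie behind the value of a gene is unknown. The FPKM of all listed features summed to between 527426 and 596669 per library. A single new lncRNA took 19.95 to 29.07% of that sum. Because FPKM is scaled to mapped fragments and not to this sum, how far that lncRNA bears on the other values is unknown. The 8 genes together took 380.2 to 479 FPKM in IMPA, 497 to 559 in IMA, 74.6 to 81.4 in SPA and 64.9 to 76.5 in SA. CDKN1C made up most of that sum in the intramuscular groups. Tests were limma fits on log2(FPKM + 1) over the 13103 features with a mean of at least 1 FPKM, and a difference was called at a Benjamini-Hochberg adjusted p under 0.05. Of the 8 genes, 7 passed that filter, and PEG3, with a mean of 0.27 FPKM over the 20 libraries, did not.

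**Figure D1:**
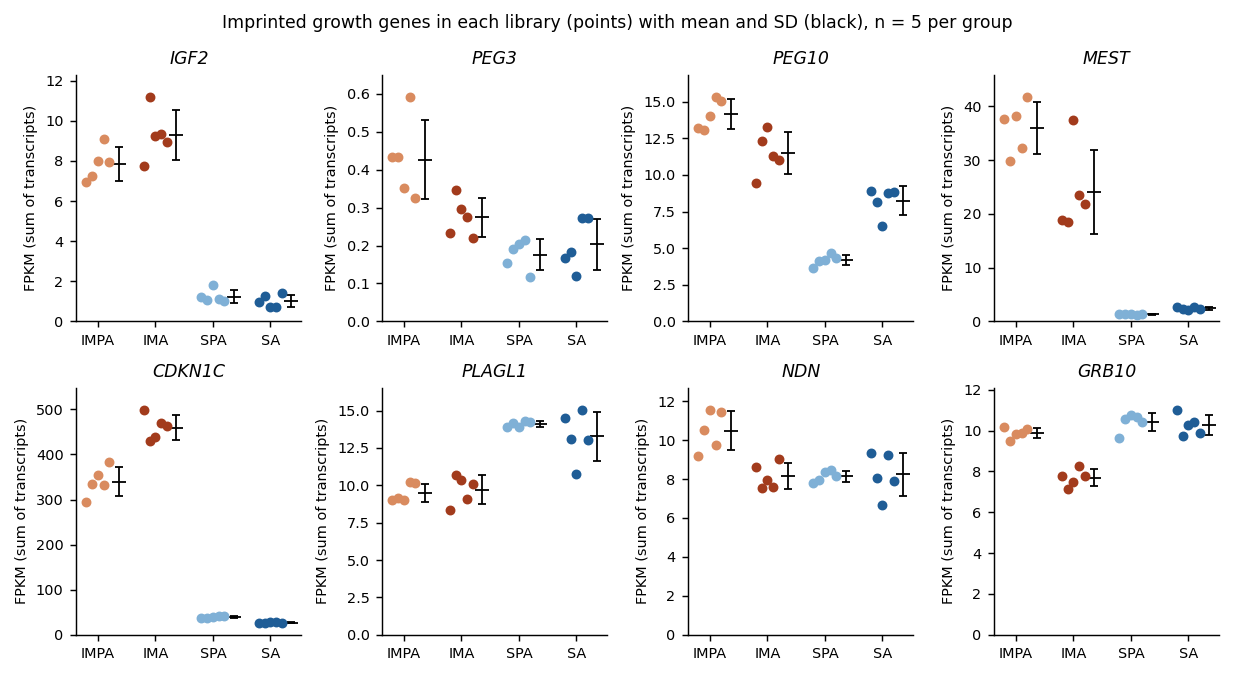
FPKM of each imprinted growth gene, summed over its transcripts (vertical axis, from 0), in the 5 libraries of each group (points), with the mean and SD beside them in black. IGF2, MEST and CDKN1C were high in both intramuscular groups and low in both subcutaneous groups, while PLAGL1 was higher in the subcutaneous groups and NDN and GRB10 stayed within 6.68 to 11.5 FPKM.

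IGF2 (gene ID 100861277) encodes a secreted growth factor that signals through the IGF1 receptor and is a main driver of fetal growth. It was 6.95, 7.24, 8.02, 9.11 and 7.96 FPKM in the IMPA libraries and 7.76, 11.2, 9.22, 9.37 and 8.94 FPKM in IMA. In SPA it was 1.22, 1.09, 1.80, 1.11 and 0.998 FPKM and in SA 0.982, 1.29, 0.71, 0.721 and 1.40 FPKM. Every intramuscular library lay above every subcutaneous library, while IMPA overlapped IMA and SPA overlapped SA. The mean was 7.86 ± 0.839 FPKM (SD, n = 5) in IMPA and 1.24 ± 0.320 in SPA, a ratio of 6.32, and the limma difference was 1.99 on the log2 scale (95% interval 1.78 to 2.20, adjusted p = 3.4e-09). In the induced cells the means were 9.30 ± 1.23 and 1.02 ± 0.318 FPKM, a ratio of 9.11 (log2 2.36, 2.11 to 2.60, adjusted p = 1.42e-09).

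With induction, IGF2 did not pass the test in either depot. The log2 difference was 0.21 (0.02 to 0.41) for IMA vs IMPA with adjusted p = 0.0578 in the limma fit, and -0.15 (-0.42 to 0.11) for SA vs SPA with adjusted p = 0.308. Without IMPA 4 the intramuscular difference was 0.26, and without IMA 1 it was 0.27, and both passed. The difference between the depots in this change was 0.37 (0.05 to 0.69, adjusted p = 0.0515), and it passed without IMPA 4 (0.42), IMA 1 (0.42), SPA 5 (0.41), SA 2 (0.42) or SA 5 (0.43). Both differences also passed after upper-quartile scaling, after quantile normalization and with mRNA genes alone in the fit. The order of the means was IMA, IMPA, SPA, SA. The genes whose levels over the 20 libraries ran closest to IGF2 were QRFPR, STARD13 and SLC16A10, with a root mean square difference of 0.17, 0.18 and 0.18 on the log2 scale, against 1.1 for IGF2 about its own mean.

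GRB10 (gene ID 102173910) encodes an adaptor protein that binds the insulin and IGF1 receptors and dampens their signal. Its level was 10.2, 9.49, 9.86, 9.87 and 10.1 FPKM in IMPA and 7.78, 7.15, 7.47, 8.28 and 7.80 FPKM in IMA. It was 9.66, 10.6, 10.8, 10.7 and 10.4 FPKM in SPA and 11, 9.71, 10.3, 10.4 and 9.90 FPKM in SA. IMA stood below the other 3 groups without overlap, and IMPA, SPA and SA overlapped one another. GRB10 fell with induction in the intramuscular cells, from 9.89 ± 0.257 to 7.70 ± 0.422 FPKM (SD, n = 5), a limma difference of -0.33 (-0.42 to -0.23, adjusted p = 7.8e-05). It was also lower in IMA than in SA, by log2 -0.37 (-0.48 to -0.27, adjusted p = 2.15e-05).

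In the subcutaneous cells the GRB10 difference with induction was -0.02 (-0.12 to 0.07, adjusted p = 0.723 in limma), which did not pass. The change with induction differed between the depots (-0.30, -0.43 to -0.18, adjusted p = 0.000178). Between IMPA and SPA the difference was -0.07 (-0.15 to 0.01, adjusted p = 0.118), not called. It passed without SPA 1 (-0.09), with upper-quartile scaling (-0.12) and with quantile normalization (-0.13). It also passed with an ordinary linear model that held a library-size covariate (-0.06), which was computed from FPKM and not from reads. The order of the means was SPA, SA, IMPA, IMA, and only IMA stood apart from its neighbour. EDC4, TSTD2 and FZR1 ran closest to GRB10, at root mean square differences of 0.0701, 0.0702 and 0.0716, against 0.17 for GRB10 about its own mean.

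CDKN1C (gene ID 108634245) encodes an inhibitor of cyclin-dependent kinases that holds cells out of the cell cycle and is known for its high level in differentiating muscle. It was the most abundant of the 8 genes in every group. The IMPA libraries had 294, 334, 355, 333 and 382 FPKM and the IMA libraries 498, 429, 438, 469.9 and 462 FPKM. The SPA libraries had 36.9, 37.1, 39.5, 40.9 and 41.7 FPKM and the SA libraries 26.6, 26.9, 27.7, 29.4 and 25.1 FPKM. No 2 groups overlapped, in the order IMA, IMPA, SPA, SA.

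The CDKN1C mean was 339.7 ± 32.7 FPKM (SD, n = 5) in IMPA and 39.2 ± 2.17 in SPA, a ratio of 8.67 (limma log2 3.08, 2.94 to 3.22, adjusted p = 2.59e-12). Among the induced cells it was 459.5 ± 27.3 FPKM in IMA and 27.1 ± 1.57 in SA, a ratio of 16.9 (log2 4.03, 3.92 to 4.14, adjusted p = 3.04e-15). With induction it rose in the intramuscular cells by log2 0.44 (0.29 to 0.58, adjusted p = 0.000216) and fell in the subcutaneous cells, by log2 -0.52 (-0.62 to -0.41, adjusted p = 6.44e-06). The difference between these changes was 0.95 (0.78 to 1.13, adjusted p = 1.12e-08). The summed skeletal muscle markers and CDKN1C were both highest in IMA, and proliferation markers rose where CDKN1C fell, from SPA to SA. Of the muscle markers, MYOD1 was higher in IMPA than in IMA, at 43.2 ± 1.84 against 26.1 ± 2.51 FPKM (SD, n = 5). All 8 proliferation markers were higher in IMPA than in SPA, where CDKN1C was also higher, and lower in IMA than in SA, where CDKN1C was higher. The part of either list was not tested. CAP2, SYNC and TMSB15B ran closest to CDKN1C, at 0.19, 0.21 and 0.22 against its own 1.80.

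PLAGL1 (gene ID 102180127) encodes a zinc finger transcription factor known to regulate other imprinted genes and to arrest the cell cycle. Its summed level was 9.05, 9.15, 8.99, 10.2 and 10.2 FPKM in IMPA and 8.36, 10.7, 10.4, 9.08 and 10.1 FPKM in IMA. It was 13.9, 14.2, 13.9, 14.3 and 14.2 FPKM in SPA and 14.5, 13.1, 10.8, 15 and 13.0 FPKM in SA. Every subcutaneous library lay above every intramuscular library, though SA 3 came closest to the latter. PLAGL1 was lower in IMPA than in SPA, at 9.51 ± 0.611 against 14.1 ± 0.182 FPKM (SD, n = 5), a limma difference of -0.53 (-0.62 to -0.43, adjusted p = 3.48e-07). It was also lower in IMA than in SA (log2 -0.41, -0.60 to -0.22, adjusted p = 0.00118).

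Induction did not move PLAGL1 past the threshold in either depot, with limma differences of 0.03 (-0.12 to 0.17, adjusted p = 0.762) and -0.09 (-0.25 to 0.07, adjusted p = 0.329). Without IMA 2 the first was -0.0071. The difference between the depots was 0.12 (-0.10 to 0.33, adjusted p = 0.348). The means ran SPA, SA, IMA, IMPA, with overlap within each depot. MYO5A, ITPR2 and PSMF1 ran closest to PLAGL1, at 0.0905, 0.0984 and 0.10 against its own 0.26.

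NDN (gene ID 102176779) encodes necdin, a MAGE family protein that restrains cell growth and is known in neurons, muscle precursors and preadipocytes. It was 9.19, 10.5, 11.5, 9.78 and 11.4 FPKM in IMPA and 8.62, 7.52, 7.93, 7.59 and 9.04 FPKM in IMA. It was 7.79, 7.94, 8.35, 8.45 and 8.18 FPKM in SPA and 9.36, 8.07, 6.68, 9.25 and 7.88 FPKM in SA. IMPA stood above IMA and SPA without overlap, while its lowest library was under the highest of SA. NDN fell from 10.5 ± 1.02 FPKM in IMPA to 8.14 ± 0.666 in IMA (SD, n = 5), a limma difference of -0.33 (-0.48 to -0.17, adjusted p = 0.00212), and it was higher in IMPA than in SPA by 0.33 (0.20 to 0.46, adjusted p = 0.000353).

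SA vs SPA (0.01, -0.16 to 0.18, adjusted p = 0.936 in limma) and IMA vs SA (-0.01, -0.19 to 0.17, adjusted p = 0.914) were not called for NDN. Near 0, the first changed sign without SPA 1 (-0.0053), SA 1 (-0.034) or SA 4 (-0.030), and the second without IMA 2 (0.014), IMA 4 (0.011), SA 1 (0.032) or SA 4 (0.028). The difference between the depots in the change with induction was -0.34 (-0.56 to -0.12, adjusted p = 0.011), and it no longer passed after upper-quartile scaling (-0.26) or quantile normalization (-0.24). The means ran IMPA, SA, IMA, SPA, and SA, IMA and SPA overlapped. NUP50, REV1 and FLII ran closest, at 0.0974, 0.0977 and 0.10 against 0.18 for NDN about its own mean.

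MEST (gene ID 102183936) encodes a membrane protein of the alpha/beta hydrolase fold that is linked in mice to fat cell size and fat mass expansion. The IMPA libraries had 37.6, 29.9, 38.3, 32.3 and 41.7 FPKM and the IMA libraries 18.8, 18.5, 37.4, 23.4 and 21.8 FPKM. The SPA libraries had 1.34, 1.41, 1.34, 1.2 and 1.40 FPKM and the SA libraries 2.71, 2.26, 2.1, 2.72 and 2.35 FPKM. IMA 3 lay within the range of IMPA, and the other IMA libraries lay below all IMPA libraries. All intramuscular libraries were above the subcutaneous ones, and all SA libraries were above all SPA libraries.

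The MEST mean was 36.0 ± 4.78 FPKM (SD, n = 5) in IMPA and 1.34 ± 0.0824 in SPA, a ratio of 26.9 (limma log2 3.97, 3.80 to 4.15, adjusted p = 1.84e-12). In IMA it was 24.0 ± 7.78 FPKM and in SA 2.43 ± 0.278, a ratio of 9.87 (log2 2.82, 2.48 to 3.16, adjusted p = 6.27e-09). With induction MEST fell in the intramuscular cells (log2 -0.60, -0.98 to -0.23, adjusted p = 0.0107) and rose in the subcutaneous cells (log2 0.55, 0.42 to 0.68, adjusted p = 2.13e-05), and the difference between these changes was -1.15 (-1.55 to -0.76, adjusted p = 3.7e-05). Without IMA 3 the intramuscular difference was -0.77. It missed the threshold in an ordinary linear model with a library-size covariate (-0.56). With the mapped share in the limma model it turned to 1.01 and the difference between the depots went to 0.0065, neither of them called. The order was IMPA, IMA, SA, SPA. The summed pericyte or smooth muscle markers, nearly all ACTA2, had the same order of means, with IMA 3 the highest IMA library in both. CNN1 and NOTCH3, the other members that passed the filter, did not have that order. CNN1 ran IMA, IMPA, SPA, SA and NOTCH3 ran IMPA, SPA, IMA, SA. IMA 3 also had the highest proliferation and satellite cell sums and the highest mapped share of the IMA libraries. The part of any of these was not tested. CDK5R1, COL4A1 and LOC108634948 ran closest to MEST, at 0.25, 0.27 and 0.29 against its own 1.74.

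PEG10 (gene ID 102183389) derives from a retrotransposon and encodes a protein needed for the placenta, which is also known to favour cell proliferation. It was 13.2, 13.1, 14.0, 15.3 and 15.1 FPKM in IMPA and 9.42, 12.3, 13.3, 11.3 and 11 FPKM in IMA. It was 3.66, 4.12, 4.18, 4.64 and 4.34 FPKM in SPA and 8.92, 8.16, 6.54, 8.74 and 8.81 FPKM in SA. The subcutaneous groups did not overlap each other, and neither overlapped an intramuscular group, whereas IMPA and IMA overlapped through IMA 3.

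PEG10 rose from 4.19 ± 0.358 FPKM in SPA to 8.23 ± 0.990 in SA (SD, n = 5), a ratio of 1.97 (limma log2 0.83, 0.65 to 1.01, adjusted p = 1.06e-05). It fell from 14.1 ± 1.03 FPKM in IMPA to 11.5 ± 1.44 in IMA (log2 -0.28, -0.46 to -0.11, adjusted p = 0.0106), and the difference between these changes was -1.11 (-1.36 to -0.87, adjusted p = 1.24e-07). With the mapped share in the limma model the intramuscular difference turned to 0.04 and was not called. The intramuscular cells were higher at day 0 (log2 1.54, 1.41 to 1.68, adjusted p = 5.44e-10) and after induction (log2 0.43, 0.23 to 0.64, adjusted p = 0.00131). The order of the means was IMPA, IMA, SA, SPA. The pericyte or smooth muscle sum, nearly all ACTA2, had the same order, but CNN1 and NOTCH3 of that list did not. Like PEG10, the proliferation markers rose from SPA to SA and were higher in IMPA than in SPA. All 8 were lower in IMA than in SA, where PEG10 was higher. The part of these lists was not tested. LOC102179054, B4GALT6 and LOC102191766 ran closest to PEG10, at 0.15, 0.15 and 0.17 against its own 0.60.

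PEG3 (gene ID 102189790) encodes a large zinc finger protein that is known in muscle stem cells and the placenta. Its level was under 1 FPKM throughout, at 0.432, 0.434, 0.352, 0.591 and 0.324 FPKM in IMPA and 0.232, 0.346, 0.297, 0.275 and 0.220 FPKM in IMA. It was 0.153, 0.192, 0.203, 0.214 and 0.117 FPKM in SPA and 0.167, 0.183, 0.121, 0.271 and 0.273 FPKM in SA. IMPA was above both subcutaneous groups without overlap and overlapped IMA, IMA was above SPA but overlapped SA, and SPA and SA overlapped. The means ran IMPA, IMA, SA, SPA, from 0.427 ± 0.104 to 0.176 ± 0.0403 FPKM (SD, n = 5), and no test is given because the gene failed the filter. BRAF, IKZF5 and UBQLN1 ran closest to PEG3, at 0.0559, 0.0637 and 0.0638 against its own 0.13.

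Counted over the 7 tested genes, depot went with more calls than induction, as it did over all features, and the difference between these counts was not tested. For IMPA vs SPA, 5 of the 7 were higher in IMPA and 1 lower, where 42.1% of all 13103 features were higher and 31% lower, 73.1% in all. The median difference of the 7 was 1.54 on the log2 scale against 0.07 over all features. For IMA vs SA, 4 were higher in IMA and 2 lower, against 26.9% and 41.8% of all features, 68.8% in all, with a median of 0.43 against -0.10.

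For IMA vs IMPA, 1 of the 7 was higher in IMA and 4 lower, where 18.3% of all features were higher and 37.6% lower, 55.9% in all, with a median difference of -0.28 against -0.09. For SA vs SPA, 2 were higher in SA and 1 lower, against 26.2% and 23%, 49.3% in all, with a median of -0.02 against 0.01. The change with induction differed between the depots for 5 of the 7, 1 higher and 4 lower, where 19.1% of features were higher and 34.4% lower, 53.4% in all, with a median of -0.30 against -0.10. CDKN1C, MEST and PEG10 each moved in opposite directions in the 2 depots. The comparisons share libraries and are not independent of one another.

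**Figure D2:**
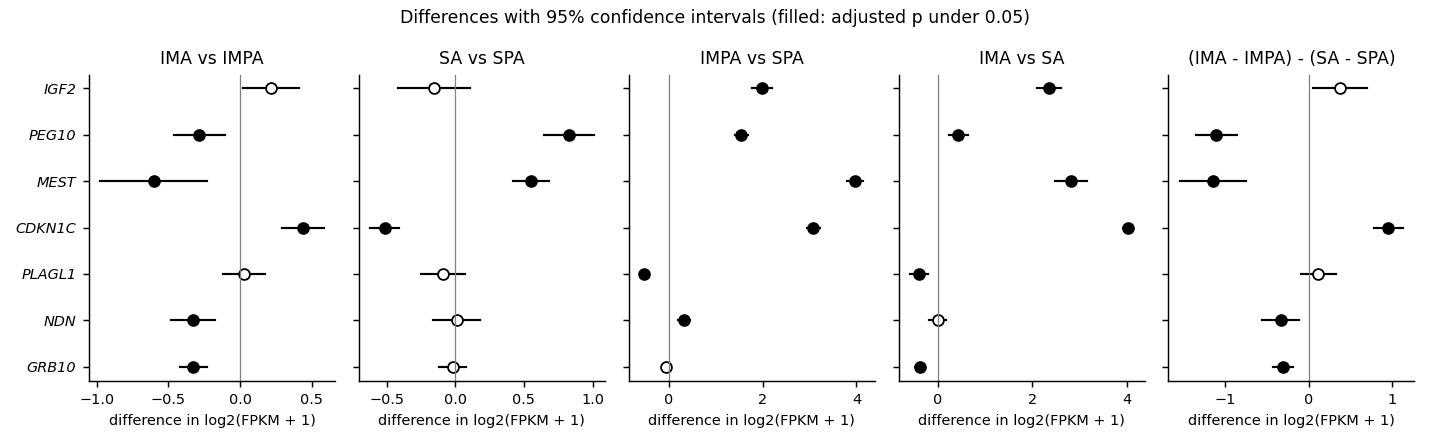
Difference in log2(FPKM + 1) (horizontal axis) of the 7 tested genes in the 4 pairwise comparisons and in the difference between the depots in the change with induction, with 95% confidence intervals from limma and filled points for adjusted p under 0.05. The induction differences of PEG10, MEST and CDKN1C lie on opposite sides of 0 in the 2 depots, and the depot differences of MEST reach 3.97 and 2.82. Each panel has its own scale.

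Several calls depended on the model. The share of reads that mapped was higher in every IMPA library than in every IMA or SPA library, higher in SPA than in SA and higher in IMA than in SA, so it separates the groups of each pairwise comparison. With that share in the limma model none of the 7 genes passed for IMA vs IMPA, where 641 of 13103 features did. Of the 7, 2 had an unadjusted p under 0.05. The estimates for PEG10 and MEST turned to 0.04 and 1.01, while CDKN1C (0.55), GRB10 (-0.22) and NDN (-0.17) lost the call without changing sign. For IMPA vs SPA, NDN (0.12) and PLAGL1 (-0.52) no longer passed, and for IMA vs SA neither PLAGL1 (-0.40) nor PEG10 (0.30) did. For the difference between the depots, CDKN1C and PEG10 stayed called, and the estimate for MEST was 0.0065. NDN (-0.28, against -0.34 in the main fit) and GRB10 (-0.28, against -0.30) lost the call there with estimates about as large. The same 3 of 7 genes were called for SA vs SPA, PEG10 at 0.60, MEST at 0.42 and CDKN1C at -0.63. The mapped share and the groups cannot be told apart by this design.

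With an ordinary linear model and a library-size covariate, 2 of the 7 genes, CDKN1C and GRB10, were called for IMA vs IMPA, and PEG10 (-0.36), MEST (-0.56) and NDN (-0.31) were not. That covariate was summed from the FPKM values of each library and is not a read total, so sequencing depth was not held constant. PEG10 for IMA vs IMPA also missed the threshold when its most abundant transcript stood for the gene (-0.30).

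The transcripts behind the gene sums were then read one by one. MEST, NDN and GRB10 have 1 transcript each, IGF2 and CDKN1C have 2, PEG10 has 4, PEG3 has 6 and PLAGL1 has 9. The share of a transcript in its gene's FPKM was compared with a two-sided exact permutation test, over 40 comparisons of 10 transcripts whose mean share lay between 10% and 90%. None passed at an adjusted p under 0.05, the smallest adjusted p of the exact tests was 0.198, and 8 had an unadjusted p under 0.05. For IGF2 and CDKN1C, with 2 transcripts each, each comparison is counted for both transcripts although the shares mirror each other. With 5 libraries against 5, the smallest p the exact test can give is 0.00794, so no single share could have passed the adjustment over 40 comparisons.

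PEG10 was the gene with the largest spread of shares within a group. NM_001291300.1 took 99.6, 86.5, 12.4, 0.177 and 78.9% of the PEG10 FPKM in the SPA libraries, while NM_001291299.1 took 0.412, 13.4, 66.9, 76.6 and 21.1%. In the other groups NM_001291299.1 led in every library, with 72.9, 64.0, 81, 72.2 and 72.5% in IMPA, 72.1, 79.4, 69.2, 64.8 and 69.1% in IMA and 73.2, 58.9, 60.8, 66.3 and 77.6% in SA. The SPA libraries thus fell into those where NM_001291300.1 held most of the signal, SPA 1, SPA 2 and SPA 5, and those that looked like the other groups, SPA 3 and SPA 4. The summed PEG10 level of the 5 SPA libraries stayed within 3.66 to 4.64 FPKM. Reads would be needed to tell transcript use from read assignment, here and for IGF2 below, and this was not tested.

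IGF2 showed the same kind of switch in single libraries. NM_001287042.1 took 10.0, 3.79, 81.1, 14.2 and 8.01% of the IGF2 FPKM in SPA and 3.78, 97.8, 3.95, 14.3 and 2.57% in SA, so it led in SPA 3 and SA 2 alone. It took 2.81, 2.50, 7.91, 1.52 and 6.66% in IMPA and 9.48, 7.38, 11, 13.4 and 2.62% in IMA. SPA 3 was also the SPA library with the highest IGF2 sum, at 1.80 FPKM, and the part of the transcript assignment in that sum was not tested. For CDKN1C, XM_018043546.1 led in all 20 libraries, and XM_018043545.1 took 14.0, 17.4, 18.7, 18.7 and 31.2% in IMA and 8.52, 11.8, 5.35, 5.50 and 17.3% in SA, with overlap between the groups (exact p = 0.0159, adjusted p = 0.198).

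**Figure D3:**
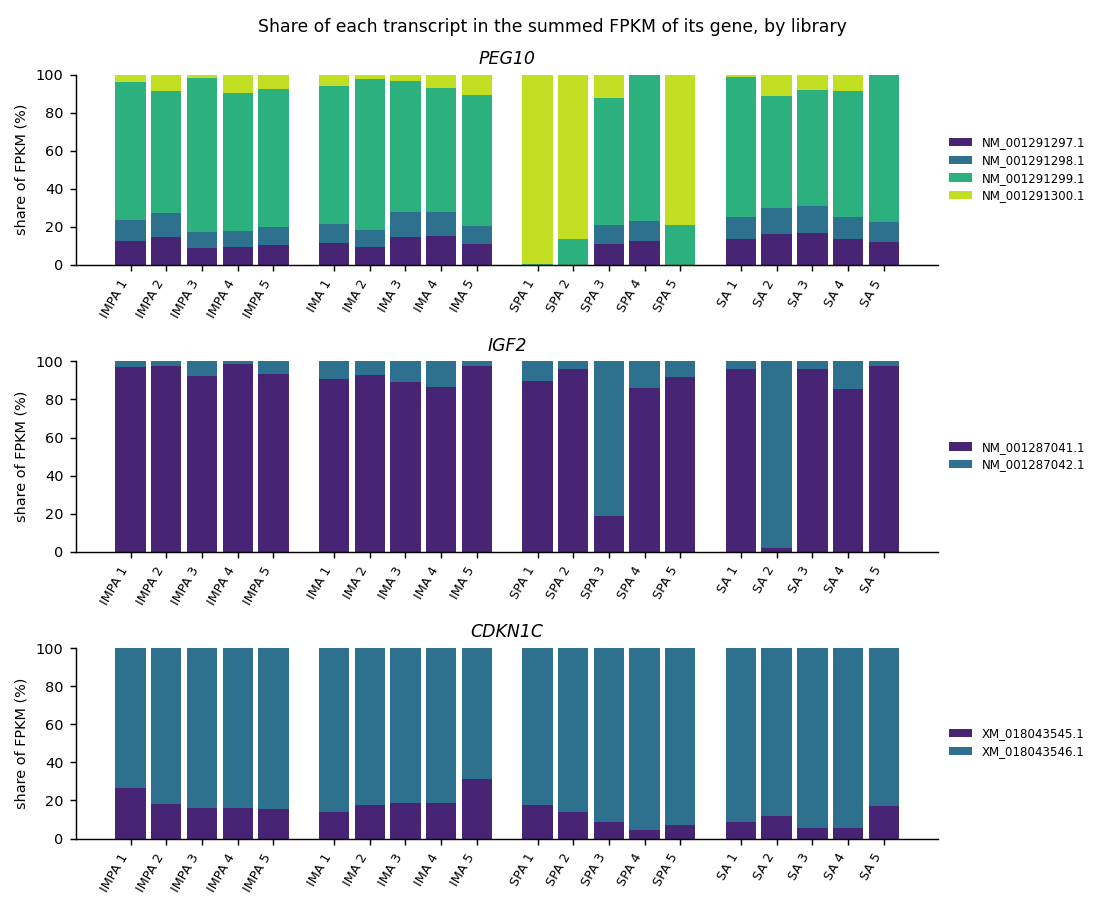
Share of each transcript in the summed FPKM of PEG10, IGF2 and CDKN1C (vertical axis, percent) in each of the 20 libraries (bars, grouped by IMPA, IMA, SPA and SA). PEG10 is dominated by NM_001291300.1 in SPA 1, SPA 2 and SPA 5, and IGF2 by NM_001287042.1 in SPA 3 and SA 2.

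Of the 9 PLAGL1 transcripts, XM_018053293.1 and XM_018053289.1 were the most abundant. The first had a mean of 3.30 ± 0.749 FPKM (SD, n = 5) in IMPA, 3.30 ± 1.14 in IMA, 6.13 ± 0.743 in SPA and 5.93 ± 0.867 in SA, so it carried most of the depot difference of the gene sum. The second had 2.28 ± 0.852 FPKM in IMPA, 2.34 ± 0.899 in IMA, 3.27 ± 0.871 in SPA and 3.90 ± 1.5 in SA. Of the 6 PEG3 transcripts, 2 were at 0 in every library, and XM_018063405.1 took 98.4, 86.4, 97.1, 4.12 and 94.7% in IMPA and 98.1, 98.6, 94.6, 0 and 95.5% in IMA, so IMPA 4 and IMA 4 stood apart, against 92.8% or more in every subcutaneous library.

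Imprinted genes lie in clusters, so the protein-coding genes next to each of the 8 were read from the RefSeq gene table of assembly ARS1.2, for their order only, because the deposited values use ARS1. The neighbours of IGF2 were not alike. LOC102176024, a gene without a symbol of its own, was 12.1 ± 1.66 FPKM in IMPA and 14.7 ± 1.90 in IMA against 0.0996 ± 0.0801 in SPA and 0.0250 ± 0.0246 in SA (SD, n = 5), and rose with induction in the intramuscular cells (limma log2 0.26, adjusted p = 0.0422). TNNT3, a fast troponin of skeletal muscle, was 122 ± 8.44 FPKM in IMPA, 947 ± 52.7 in IMA, 6.41 ± 0.71 in SPA and 6.93 ± 0.940 in SA (SD, n = 5), and the tyrosine hydroxylase gene TH was 2.20 ± 0.282 and 2.04 ± 0.413 FPKM in IMPA and IMA and at or near 0 in SPA and SA. MRPL23, a mitochondrial ribosomal protein gene, was 85.9 ± 4.92, 77.6 ± 9.30, 81.8 ± 3.30 and 88.0 ± 6.12 FPKM in the same order, and INS and ASCL2 were under 1 FPKM on average in each group.

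CDKN1C has the imprinted genes PHLDA2, SLC22A18, KCNQ1 and TSSC4 beside it. The first 3 had group means under 1 FPKM, though PHLDA2 was 0.307 ± 0.0685 FPKM in IMPA and 0.626 ± 0.202 in IMA against 0.0442 ± 0.0987 in SPA and 0.173 ± 0.146 in SA. TSSC4 was 13.2 ± 1.42 FPKM in IMPA, 7.95 ± 1.08 in IMA, 8.52 ± 0.929 in SPA and 10.3 ± 0.697 in SA (SD, n = 5). It fell with induction in the intramuscular cells (limma log2 -0.67, adjusted p = 0.000115), where CDKN1C rose, and rose in the subcutaneous cells (log2 0.25, adjusted p = 0.0124), where CDKN1C fell. NAP1L4 was 44.9 ± 2.90, 46.6 ± 1.42, 34.4 ± 1.48 and 39.6 ± 2.88 FPKM.

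SGCE, the sarcoglycan gene beside PEG10, was 39.8 ± 1.56 FPKM in IMPA, 40.6 ± 0.727 in IMA, 37.0 ± 1.49 in SPA and 48.8 ± 4.53 in SA (SD, n = 5). Like PEG10 it rose from SPA to SA (limma log2 0.39, adjusted p = 0.000212), while IMA vs IMPA was not called (log2 0.03, adjusted p = 0.474). CASD1 fell in the intramuscular cells (log2 -0.33, adjusted p = 0.000353) and rose in the subcutaneous cells (log2 0.29, adjusted p = 0.000959). Of the tested neighbours of MEST, CEP41 fell in the intramuscular cells (log2 -0.17, adjusted p = 0.0351) as MEST did, and was not called for SA vs SPA (log2 -0.10, adjusted p = 0.0631). COPG2 moved the other way from MEST in both depots, with 14.5 ± 0.274 FPKM in IMPA, 18.0 ± 0.671 in IMA, 13.1 ± 0.488 in SPA and 11.8 ± 0.428 in SA (log2 0.30, adjusted p = 3.53e-05, and log2 -0.14, adjusted p = 0.0106).

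Beside NDN, MAGEL2 and MKRN3 were under 1 FPKM in every group mean, and SNURF and SNRPN, which are read from overlapping transcripts and so are uncertain as separate values, were 40.9 ± 1.68 and 14.1 ± 0.977 FPKM in IMPA. SNRPN rose with induction in both depots, by log2 0.52 (adjusted p = 5.76e-05 in limma) and 0.69 (adjusted p = 6.52e-06), where NDN fell in the intramuscular cells and was not called in the subcutaneous cells. SNURF was not called in the intramuscular cells (log2 0.01, adjusted p = 0.84) and rose in the subcutaneous cells (log2 0.40, adjusted p = 5.13e-06). Beside GRB10, FIGNL1 fell in the intramuscular cells as GRB10 did (log2 -0.29, adjusted p = 0.00623) and rose in the subcutaneous cells (log2 0.29, adjusted p = 0.00162), and COBL was 2.52 ± 0.291 FPKM in IMPA and 4.31 ± 0.318 in IMA against 0.00375 ± 0.00514 in SPA and 0.00905 ± 0.0115 in SA. PLAGL1 has UTRN, the utrophin gene, near it, at 59.2 ± 3.99, 52 ± 2.58, 18.3 ± 0.348 and 23.2 ± 1.3 FPKM, higher in the intramuscular groups where PLAGL1 was lower. STX11 was also higher there, at 2.98 and 3.98 FPKM in IMPA and IMA against 0.0963 and 0.248 in SPA and SA. LTV1 was higher in IMPA than in SPA (limma log2 0.54, adjusted p = 6.24e-06). SF3B5 was lower in IMA than in SA, as PLAGL1 was (log2 -0.30, adjusted p = 0.000216). PHACTR2 was highest in SA, at 1.82 FPKM. All 6 neighbours of PEG3 were under 1 FPKM on average in each group.

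Of 67 other genes known as imprinted in some mammal, 58 are listed and 30 passed the filter. For IMPA vs SPA, 17 of the 30 were higher and 8 lower, with a median of 0.16, where 42.1% of all features were higher and 31% lower, with a median of 0.07. AMPD3, COBL, DIO3 and RB1 were higher in the intramuscular cells, with AMPD3, an AMP deaminase, at 28.0 ± 0.926 FPKM in IMPA and 0.0249 ± 0.0138 in SPA (SD, n = 5). DCN, TFPI2, CD81 and NAA60 were lower, led by DCN, the matrix proteoglycan decorin that also stands among the stromal markers, at 660.5 ± 103 against 5441 ± 135 FPKM (limma log2 -3.05, adjusted p = 3.68e-11). AMPD3, COBL and DIO3 passed the filter through the intramuscular groups alone, so their direction is given as a description, and 3 of the 17 are these genes, as are 3 of the 14 below. DIO3, which inactivates thyroid hormone, was 2.65 ± 0.340 FPKM in IMPA and listed at 0 in all SPA libraries. For IMA vs SA, 14 were higher and 9 lower, with a median of 0.02, against 26.9% and 41.8% of all features and a median of -0.10.

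With induction, 10 of the 30 rose and 9 fell for IMA vs IMPA (median 0.03), where 18.3% of all features rose and 37.6% fell (median -0.09), and the split was 15 and 6 with upper-quartile scaling. For SA vs SPA, 12 rose and 8 fell (median 0.02), against 26.2% and 23% of all features (median 0.01). NNAT rose in both depots, from 1.74 ± 0.237 to 3.98 ± 0.524 FPKM in the intramuscular cells (SD, n = 5; limma log2 0.86, adjusted p = 8.67e-06) and from 0.719 ± 0.108 to 2.21 ± 0.531 FPKM in the subcutaneous cells (log2 0.89, adjusted p = 3.54e-05). DHCR7, an enzyme of cholesterol synthesis, fell in both, by log2 -0.74 (adjusted p = 3.04e-06) and -0.73 (adjusted p = 1.67e-05). The change differed between the depots for 16 of the 30, 8 in each direction, where 19.1% of all features were higher and 34.4% lower, and the split was 12 and 7 with upper-quartile scaling and 11 and 7 with quantile normalization. At the ends were TSSC4 (log2 -0.92, adjusted p = 2.11e-06) and GATM (log2 0.77, adjusted p = 4.31e-05). The 30 include AMPD3, COBL and DIO3, which passed the filter through the intramuscular groups alone. They lie near 0 in SPA and SA, so for them the difference between the depots is nearly the intramuscular change itself and is given as a description. DLK1, a paternally expressed marker of preadipocytes also called Pref-1, was near 0 in all groups, with means of 0.0114, 0.0316, 0.145 and 0.157 FPKM in IMPA, IMA, SPA and SA, and H19 and MEG3 are not analysed here.

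**Figure D4:**
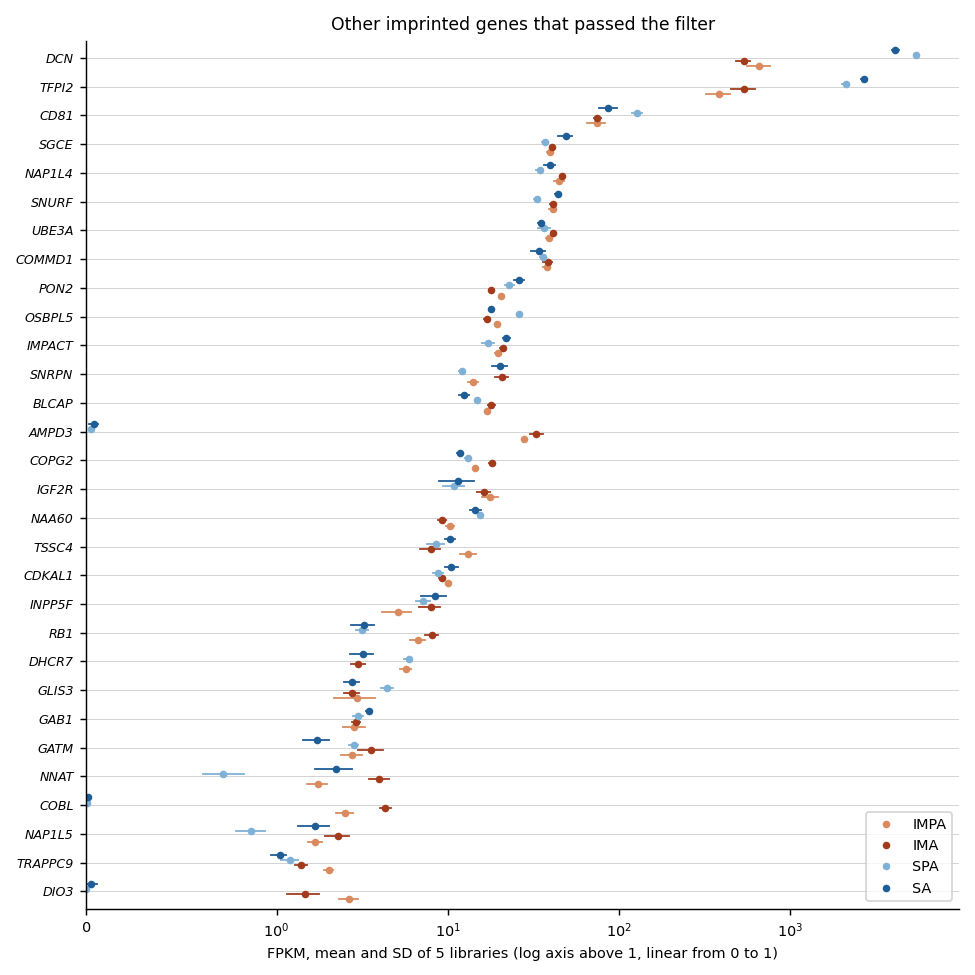
FPKM (horizontal axis, log above 1 and linear from 0 to 1) of the 30 other imprinted genes that passed the filter, as mean (points) and SD (lines) of the 5 libraries of each group. AMPD3, COBL and DIO3 lie near 0 in SPA and SA, and DCN and TFPI2 are highest in the subcutaneous groups.

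IGF2 acts with a set of receptors, binding proteins and signalling proteins. All 30 genes of this set are listed and 25 passed the filter. For IMPA vs SPA, 6 of the 25 were higher and 17 lower (median -0.35), against 42.1% and 31% of all features (median 0.07). Of the 6, PIK3CB passed the filter through the intramuscular groups alone and is also among the 8 below. For IMA vs SA, 8 were higher and 14 lower (median -0.18), against 26.9% and 41.8% (median -0.10). IGFBP2, a binding protein that holds IGF2 and IGF1 outside the cell, was 1934 ± 111 FPKM in IMPA and 1199.8 ± 101 in IMA, against 36.9 ± 2.87 in SPA and 40.3 ± 2.85 in SA (SD, n = 5; limma log2 5.67, adjusted p = 8.04e-15, for IMPA vs SPA). It thus shared the depot difference of IGF2 in direction. IGFBP3 and IGFBP5 went the other way, at 4.75 ± 0.303 against 32.5 ± 1.69 FPKM (log2 -2.54, adjusted p = 1.04e-12) and 70.2 ± 3.65 against 307 ± 42.3 FPKM (log2 -2.1, adjusted p = 8.97e-10) in IMPA and SPA.

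IGF1, the other ligand, was 16.6 ± 0.423 FPKM in IMPA, 16.6 ± 1.67 in IMA, 50.2 ± 2.55 in SPA and 40.3 ± 2.35 in SA (SD, n = 5), higher in subcutaneous cells where IGF2 was low (limma log2 -1.54 for IMPA vs SPA, adjusted p = 9.92e-12). The per-length level of IGF1 was above that of IGF2 in every group mean. Of the receptors, IGF2R, which clears IGF2 and is itself imprinted in some mammals, was 17.7 ± 1.92 FPKM in IMPA and 10.9 ± 1.55 in SPA (log2 0.65, adjusted p = 7.08e-05). IGF1R was 6.24 ± 0.673 FPKM in IMPA and 7.41 ± 0.499 in SPA (log2 -0.22, adjusted p = 0.00992), and INSR was 5.19 ± 0.341 and 6.89 ± 0.410 FPKM (log2 -0.35, adjusted p = 7.43e-05).

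With induction, 7 of the 25 rose and 6 fell for IMA vs IMPA (median -0.04), against 18.3% and 37.6% of all features (median -0.09), and 6 rose and 14 fell for SA vs SPA (median -0.19), against 26.2% and 23% (median 0.01). IGFBP6, which prefers IGF2 as its ligand, fell in both depots, from 1686 ± 87.9 to 725 ± 35.6 FPKM in the intramuscular cells (SD, n = 5; limma log2 -1.22, adjusted p = 5.34e-09) and from 2547 ± 76.3 to 2077 ± 82.5 FPKM in the subcutaneous cells (log2 -0.29, adjusted p = 0.000247). IGFBP2 fell in the intramuscular cells (log2 -0.69, adjusted p = 5.24e-06). STC1, an inhibitor of the protease that frees IGFs from binding proteins, rose in the intramuscular cells (log2 0.89, adjusted p = 0.00129) and fell in the subcutaneous cells (log2 -1.76, adjusted p = 2.33e-09), and had the largest difference between the depots of this set (log2 2.64, adjusted p = 5.46e-10). The change with induction differed between the depots for 16 of the 25, 10 higher and 6 lower (median 0.15), against 19.1% and 34.4% of all features (median -0.10). The 25 include PIK3CB, which passed the filter through the intramuscular groups alone.

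**Figure D5:**
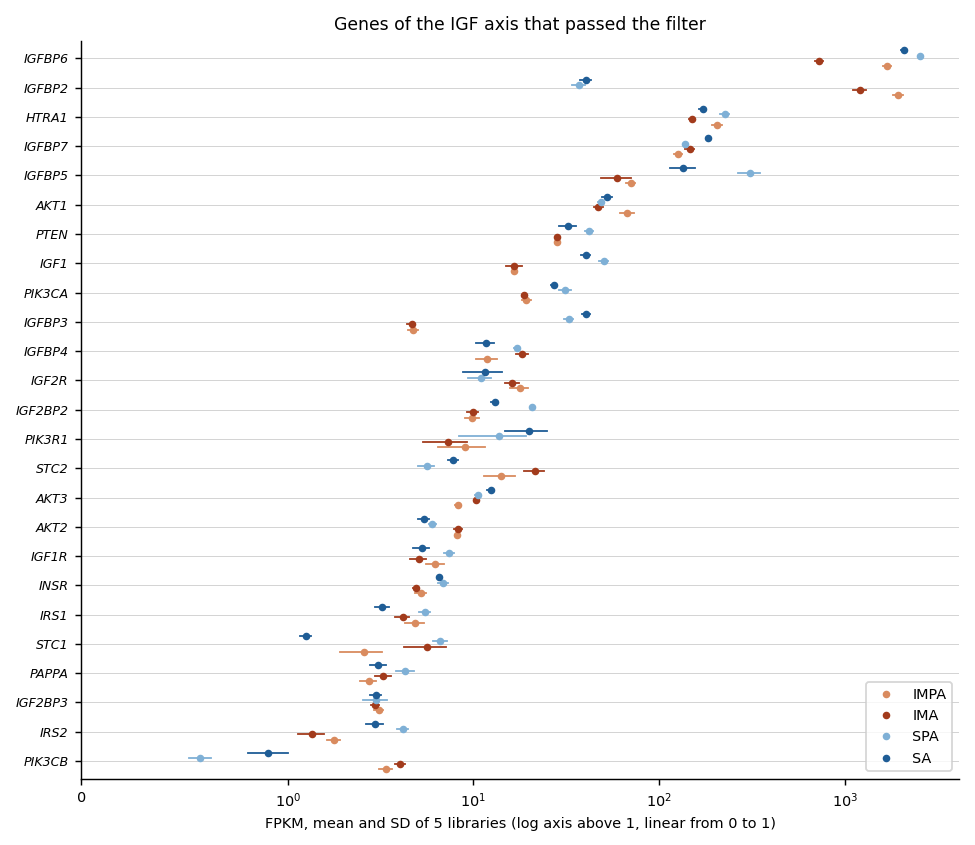
FPKM (horizontal axis, log above 1 and linear from 0 to 1) of the 25 genes of the IGF axis that passed the filter, as mean (points) and SD (lines) of the 5 libraries of each group. IGFBP2 separates the intramuscular from the subcutaneous groups, and IGF1, IGFBP3 and IGFBP5 lie lower in the intramuscular groups.

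The protein families of the 8 genes add 17 genes, of which 11 are listed and 5 passed the filter. CDKN1A, of the same inhibitor family as CDKN1C, was 53.2 ± 2.98 FPKM in IMPA, 121 ± 8.12 in IMA, 73.3 ± 2.24 in SPA and 85.3 ± 3.26 in SA (SD, n = 5). It rose with induction in both depots (limma log2 1.17, adjusted p = 2.42e-08, and log2 0.21, adjusted p = 0.000265), unlike CDKN1C, and was lower in IMPA than in SPA (log2 -0.46, adjusted p = 1.01e-06). CDKN1B was 14.4 ± 0.521 FPKM in IMPA and 11.6 ± 0.737 in SPA (log2 0.29, adjusted p = 0.000108). PLAGL2, the relative of PLAGL1, was higher in IMPA than in SPA (log2 0.33, adjusted p = 0.00307), though not past the threshold after quantile normalization. Of the MAGE genes related to NDN, MAGED1 fell with induction in both depots (log2 -0.25, adjusted p = 0.00104, and log2 -0.32, adjusted p = 0.0307). Over the 5 genes, 2 rose and 1 fell for IMA vs IMPA and 1 rose and 2 fell for SA vs SPA, where 55.9% and 49.3% of all features were called. For IMPA vs SPA 2 were higher and 2 lower, for IMA vs SA 4 were higher, and 1 was higher in the difference between the depots, where 73.1%, 68.8% and 53.4% of all features were called. GRB7 and GRB14 (related to GRB10), PLAG1, MAGEL2, RTL1 and LDOC1 failed the filter.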

How the data were processed

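RNA was measured in 20 libraries of goat cells, 5 per group. The groups are cells labelled preadipocytes from muscle (IMPA) and from subcutaneous fat (SPA), and the cells of each depot after 3 days of induction (IMA, SA). Values are FPKM as deposited by the authors, who aligned reads with HISAT2 2.0.4 to ARS1 and computed FPKM with StringTie 1.3.1 and Ballgown, and also name Cuffdiff for it. The files hold no counts, and of the read totals in the study's tables only the mapped share is used here, so how many reads lie behind the value of a gene is unknown. Whether the strand entered the FPKM is not stated.

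Transcripts were summed per gene symbol in the mRNA table and the annotated lncRNA table, while new lncRNAs were kept one by one. Features whose FPKM averaged 1 or more across all libraries were tested with limma 3.58.1 (R 4.3.3, eBayes with a variance trend) on log2(FPKM + 1), with only the 10 libraries of the compared groups in each pairwise fit and all 20 in the fit of the difference between the depots, (IMA - IMPA) - (SA - SPA). Differences are on that log2 scale, where the added 1 shrinks those of genes at low levels. P values were adjusted by Benjamini-Hochberg over all features tested and called under 0.05. The share of each transcript in its gene's FPKM was compared by a two-sided exact permutation test over 252 divisions of 10 libraries, with Benjamini-Hochberg over all shares and pairwise comparisons, for transcripts with a mean share of 10% to 90%. Other steps used Python 3.11.15, numpy 2.4.6, scipy 1.17.1, pandas 2.3.3 and matplotlib 3.10.9. The pairwise limma fits were tried on simulated data in which far fewer features changed than were called here.

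All 8 genes are described in every comparison. From the lists of other imprinted genes, the IGF axis and related families, the called genes with the largest differences are named, up to 4 per comparison and direction, with a few more that show what a list holds. The 3 genes most like each of the 8 have the smallest root mean square difference of centred log2 values over the 20 libraries. Members and lists were chosen with earlier results of these data known, and neighbouring genes were read from a RefSeq gene table by position alone.

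Alternatives were a pseudocount of 0.1, a filter at 0.1 FPKM or none, upper-quartile scaling, quantile normalization, equal mRNA FPKM sums, mRNA genes alone, single transcripts, no variance trend, an ordinary linear model with a library-size covariate, all groups in 1 fit, a replicate block, the mapped share from the study's table as a covariate, each library left out, SPA 1 and SA 5 left out together, and a share filter of 5% to 95%. The library-size covariate was the sum of a library's positive log2(FPKM + 1) values under their upper quartile, and not a count of reads. The labels do not say whether a replicate number is the same goat in each group, so the main tests have no pairing.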

Additional observations from a re-analysis of the deposited data

Results flagged for a closer look

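Among the 5 libraries of a group, 1 value stood apart from the others by Dixon's test for 2 of the genes, IGF2 at 1.80 FPKM in SPA 3 and MEST at 37.4 FPKM in IMA 3. Chance flags about 1 in 20 groups, and 8 genes in 4 groups were looked at. SPA 3 is also the SPA library in which the less abundant IGF2 transcript led. IMA 3 had the highest mapped share of the IMA libraries. It also had their highest sums of proliferation, satellite cell and pericyte or smooth muscle markers, the last nearly all ACTA2.

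The change with induction differed between the depots by the limma test of that difference for 5 of the 7 tested genes, where 53.4% of all features were called. On the log2 scale the intramuscular change minus the subcutaneous change was -1.11 for PEG10, -1.15 for MEST, 0.95 for CDKN1C, -0.34 for NDN and -0.30 for GRB10.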

How the results depend on the processing

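Of the 35 differences tested for the 7 genes, 25 were called. Of all features, 49.3% (SA vs SPA) to 73.1% (IMPA vs SPA) were called per comparison. Over the alternatives other than leaving out 1 library, 434 of 476 values had the same direction and the same side of the threshold, 15 lost the call, 11 gained it and 16 changed sign, 3 of them called in the main test. With 1 library left out, 404 of 420 were the same, 8 gained the call (IGF2 for IMA vs IMPA and for the difference between the depots, GRB10 for IMPA vs SPA), none lost it, and 8 values that were not called changed sign. Those were PLAGL1 for IMA vs IMPA (-0.0071 to 0.074 over the libraries left out) and NDN for SA vs SPA (-0.034 to 0.074) and IMA vs SA (-0.076 to 0.032).

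The mapped share as a covariate moved most. PEG10, called lower before, went to 0.037 and MEST to 1.01 for IMA vs IMPA, and MEST to 0.0065 for the difference between the depots. Genes called went from 5 to 0 of 7 for IMA vs IMPA (2 at an unadjusted p under 0.05), from 6 to 4 for each depot comparison (NDN and PLAGL1 for IMPA vs SPA, PLAGL1 and PEG10 for IMA vs SA) and from 5 to 2 for the difference between the depots. CDKN1C (0.55), GRB10 (-0.22) and NDN (-0.17) lost the call for IMA vs IMPA without changing sign. So did NDN (-0.28) and GRB10 (-0.28) for the difference between the depots. Features called went to 641 for IMA vs IMPA, 4165 for SA vs SPA, 2281 for IMPA vs SPA, 6354 for IMA vs SA and 2065 for the difference between the depots.

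With the ordinary linear model and a library-size covariate, 2 of 7 genes were called for IMA vs IMPA (4 at an unadjusted p under 0.05), PEG10, MEST and NDN losing the call, GRB10 gained it for IMPA vs SPA (-0.06), and features called went to 4877 for IMA vs IMPA and 2395 for SA vs SPA. PEG10 for IMA vs IMPA also lost it when its most abundant transcript stood for the gene (-0.30).

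Differences not called in any setting named here also changed sign. PLAGL1 for IMA vs IMPA went to -0.0052 with equal mRNA sums, -0.029 with single transcripts and -0.036 with the ordinary linear model and library-size covariate. NDN for SA vs SPA went to -0.0096 (upper quartile), -0.010 (quantile), -0.054 (equal mRNA sums) and -0.14 (mapped share), and for IMA vs SA to 0.010 (upper quartile), 0.018 (quantile), 0.0035 (ordinary linear model) and 0.053 (mapped share). IGF2 for SA vs SPA went to 0.21 with the mapped share, and GRB10 for SA vs SPA to 0.037 with the ordinary linear model.

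With a replicate block all 35 differences were the same, with 5, 3, 6, 6 and 5 genes called in the 5 comparisons. The log2 values of each library, less the mean of its group, were also correlated between groups over all tested features. Libraries of the same number had correlations of -0.147 to 0.158, 2 of 20 over 0.1. For 6 of the 20 the best match was the library of the same number. Whether a number stands for the same goat cannot be told from these values.

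Scaling moved the balance of features called. Higher and lower features for IMA vs IMPA went from 2403 and 4923 to 3001 and 3920 with upper-quartile scaling, for SA vs SPA from 3438 and 3018 to 2706 and 4104 with equal mRNA sums, and for IMPA vs SPA from 5514 and 4067 to 4446 and 5107 with quantile normalization, where the median over all features went from 0.07 to -0.03. For the difference between the depots they went from 2499 and 4502 to 3131 and 3628 (upper quartile) and 3349 and 3419 (quantile). IGF2 gained the call for IMA vs IMPA (0.27 and 0.30) and for the difference between the depots (0.43 and 0.51) and GRB10 for IMPA vs SPA (-0.12 and -0.13) under both, and NDN lost it for the difference between the depots. With mRNA genes alone in the fit both IGF2 differences were called (0.21 and 0.37). No called gene of the 7, of the other imprinted genes, of the IGF axis or of the families changed direction under these 3 scalings. The transcript shares say nothing on stability here, since the exact test leaves no single share a p small enough to pass the adjustment.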
